A study of Caenorhabditis elegans with 24 samples.

Results

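Transcripts of 42 genes of the germ line, of meiosis and of the oocyte were followed in whole Caenorhabditis elegans worms across 8 groups that differ in genotype, stage and temperature. The members were named by symbol, and each was read from the probe set whose single gene symbol in the platform table is that gene. All 42 had exactly 1 such probe set, among 25434 genes measured. They fall into 6 roles: 7 genes of germ line fate, 6 of P granules, 9 of meiosis, 8 of oocyte growth, 5 of the eggshell and egg activation, and 7 maternal genes of embryo patterning.

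RNA was measured on 24 gene arrays, 1 for each preparation, in 8 groups of 3. The groups cross wild-type worms and daf-16(mgDF47) mutants with late L4 larvae and day 3 adults, at 15 °C or 25 °C. Adults spent the 3 days from the late L4 stage at the temperature named, and about 120 were pooled per preparation. Larvae were at the temperature named from the embryo until late L4, which precedes adulthood, and each preparation pooled about 300 of them. Adults of 15 °C and 25 °C therefore have the same age in days, whereas larvae have the same stage. No wild-type strain name is in the labels, and the mutant is represented by 1 allele. DAF-16 is a FOXO transcription factor that insulin-like signalling holds in check.

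In the adult worm the germ line is an assembly line that runs from stem cells at the tip of each gonad arm, through meiotic prophase, to growing oocytes. Stem cells are held in division by the Notch receptor GLP-1, and RNA-binding proteins then move them into meiosis. Chromosomes pair along an axis of HORMA-domain proteins and are joined by the synaptonemal complex. P granules are RNA and protein condensates at the germ cell nuclei, and growing oocytes take up yolk and store the messages that later lay the eggshell and pattern the embryo. At the late L4 stage the gonad is still growing and, in hermaphrodites, makes sperm before oocytes.

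Levels are log2 intensities, and a difference of 1 is a 2-fold change. The array medians lay between 3.57 and 3.72 in adults and between 3.05 and 3.12 in larvae, and arrays of a group correlated across genes at 0.989 to 0.996. The mutated gene checks the labels: daf-16 read 10.36 to 10.63 in the 6 wild-type adult arrays and 8.02 to 8.83 in the 6 mutant ones, and 8.50 to 8.78 against 5.99 to 6.57 in larvae. The genotypes did not overlap at either stage. Some libraries stood apart for the members. In larvae at 25 °C, preparation 3 was the lowest of its group for 35 of the 42 members in wild type and for 38 in the mutant, and preparation 1 was the highest for 28 and 30. In mutant adults at 25 °C, preparation 2 was the lowest for 32. Counts and called larval members are given with and without preparation 3 of 25 °C, and the adult count without preparation 2.

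The germ line genes were among the brighter transcripts at both stages, and nearly all stood higher in adults. Because adult and larval values do not share a scale, the stages were described by each gene's percentile rank among the 25434 genes of its own array, without a test. The mean rank was higher in adults for 38 of 42 members. The median rank of the members lay between 95.7 and 96.9 in the 4 adult groups and between 89.1 and 91.4 in the 4 larval groups. The rank of htp-1, a HORMA-domain axis protein, averaged 84.9 in adults, over a range of 80.5 to 89.2 in 12 arrays, and 52.0 in larvae, with a range of 47.6 to 59.0. That of nos-2, a Nanos gene translated in embryonic germ cell precursors, averaged 74.7 and 49.4. That of meg-1, whose protein acts in the P granules of embryos, averaged 99.3 and 78.0.

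The rank of egg-2, an oocyte surface protein needed for fertilisation, averaged 95.3 in adults and 77.3 in larvae, and that of rme-2, the yolk receptor, averaged 95.3 and 81.8. In all of these, the adult and larval ranges were apart. A rank near the top leaves little room to differ between the stages. The rank of glp-1 averaged 94.5 and 92.8, that of gld-1, a translational repressor that drives meiotic entry and oocyte development, 99.9 and 99.3, and that of pgl-1, a P granule scaffold, 95.8 and 93.8. The 4 members with a lower mean rank in adults were glh-1, a Vasa-like helicase of P granules, at 86.8 against 89.4, gld-2, a cytoplasmic poly(A) polymerase, at 93.4 against 95.6, syp-1, a synaptonemal complex protein, at 89.2 against 89.4, and cgh-1, a DEAD-box helicase of germ line RNA particles, at 99.92 against 99.95. For these 4 the adult and larval ranges overlapped. They also overlapped for glp-1, daz-1, pgl-1, glh-2, htp-3, msh-5, puf-3 and car-1, whose mean rank was higher in adults.

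**Figure D1:**
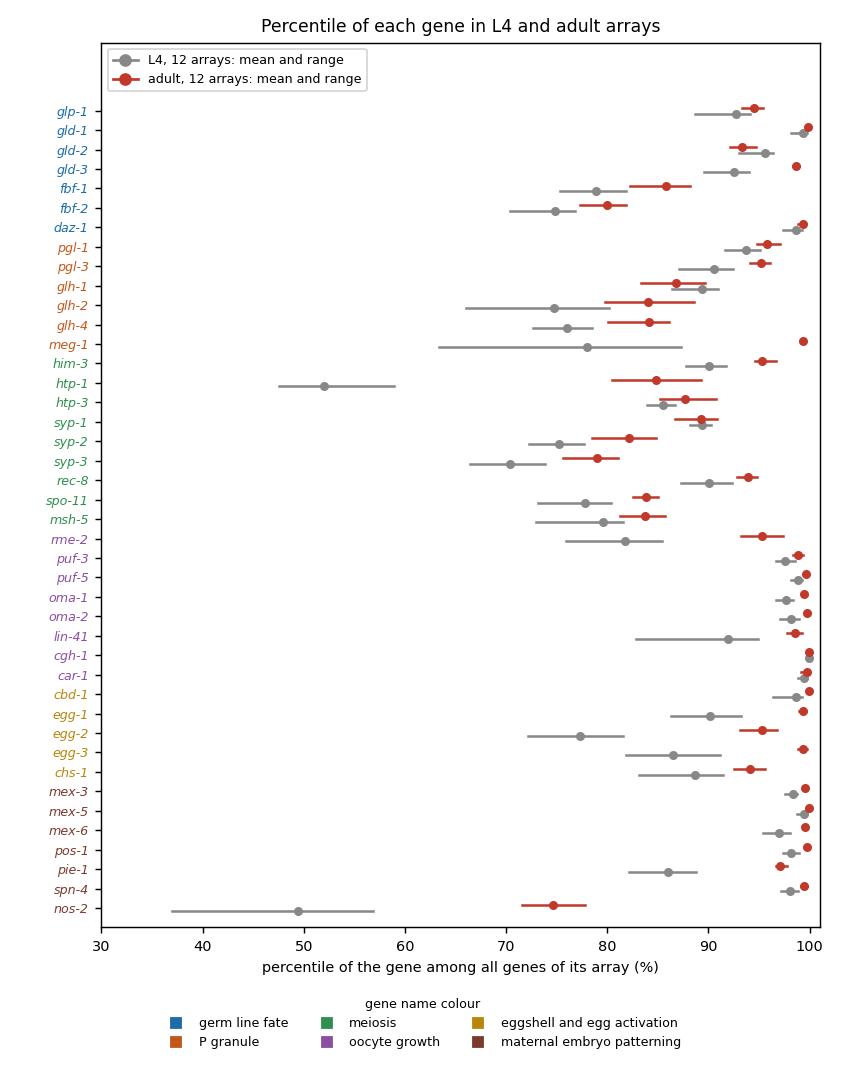
Percentile rank of each of the 42 members among all genes of the same array, on the horizontal axis, for larvae and adults, with the point at the mean and the line over the range of 12 arrays. The ranges of htp-1, nos-2, meg-1, egg-2 and rme-2 are apart, and cgh-1 sits at the top at both stages.

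In wild-type adults the warmer temperature went with lower transcripts of 4 meiosis, 2 P granule, 2 germ line fate and 2 eggshell genes. Of the 42 members, 10 fell and 0 rose at an adjusted p under 0.05, where 15% of all genes fell and 15.1% rose. At an unadjusted p under 0.05, 15 fell and 0 rose, where 22% of all genes fell and 17.9% rose. With array weights 12 members fell and 0 rose, where 17% of all genes fell. All p-values here are from limma's moderated test, adjusted over all genes. They measure the spread between preparations, pooled over the 8 groups, because the labels do not say that these were separate cultures. In whole worms, fewer germ cells and less RNA per cell cannot be told apart. The median difference, 25 °C minus 15 °C, was -0.27 for the members and -0.10 for all genes, and 40 of 42 were below 0. By role, 4 of 9 meiosis genes fell, 2 of 6 P granule genes, 2 of 7 germ line fate genes, 2 of 5 eggshell genes, 0 of 8 oocyte growth genes and 0 of 7 maternal genes. Differences between roles were not tested. Overlap of arrays, given below for single genes, describes the same values as the test and adds no separate support. Its share over all genes is not given.

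The largest difference was in glh-2, a Vasa-like helicase of P granules. It read 8.84, 8.93 and 9.04 at 15 °C and 7.68, 8.08 and 7.95 at 25 °C. The arrays of the temperatures did not overlap, and the level fell by 1.03 (SE 0.21), with a limma adjusted p of 0.000551. For glh-1, the values were 9.08, 9.05 and 9.21 at 15 °C and 8.53, 8.75 and 8.60 at 25 °C, again without overlap. It fell by 0.49 (SE 0.13, limma adjusted p 0.00593). The other P granule genes were not called: pgl-1 differed by -0.25 (limma adjusted p 0.117), and meg-1 by 0.01 (adjusted p 0.981).

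The meiosis genes that fell cover the axis, the synaptonemal complex and crossing over. The axis gene htp-3 read 9.11, 9.25 and 9.40 at 15 °C and 8.49, 8.65 and 8.65 at 25 °C. It fell by 0.66 (SE 0.12), with a limma adjusted p of 0.000236, the smallest among the members. The MutS-like gene msh-5, which promotes crossovers, read 8.61, 8.46 and 8.57 at 15 °C and 7.84, 7.94 and 8.01 at 25 °C. The groups were apart and it fell by 0.61 (SE 0.16, limma adjusted p 0.00631). For syp-2, the level went from 8.15, 8.44 and 8.44 to 7.75, 7.86 and 7.93, without overlap, and it fell by 0.50 (SE 0.14, limma adjusted p 0.00725). The other called gene of the synaptonemal complex, syp-3, fell by 0.42 (SE 0.15, limma adjusted p 0.0392), without overlap. The related syp-1 differed by -0.28 (limma adjusted p 0.121) and him-3, another HORMA-domain protein, by -0.09 (adjusted p 0.556).

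Among genes of germ line fate, fbf-1 and fbf-2, the PUF repressors that keep stem cells from meiosis, both fell. The level of fbf-1 was 8.73, 8.95 and 8.72 at 15 °C and 7.99, 8.40 and 8.30 at 25 °C, and it fell by 0.57 (SE 0.15, limma adjusted p 0.0054). That of fbf-2 was 7.996, 7.77 and 7.83 against 7.23, 7.60 and 7.49, and it fell by 0.43 (SE 0.14, limma adjusted p 0.0215). In both genes every array at 25 °C was below every array at 15 °C. The genes are close paralogs, so their probes may share signal. For glp-1 the difference was -0.26 (limma adjusted p 0.138) and for gld-1 it was -0.13 (adjusted p 0.594).

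Among genes of the eggshell and the oocyte surface, egg-2 fell by 0.40 (SE 0.14, limma adjusted p 0.0364) and chs-1, the chitin synthase of the eggshell, by 0.41 (SE 0.14, limma adjusted p 0.0355). Both had groups that did not overlap. The level of chs-1 was 10.24, 10.21 and 10.22 at 15 °C and 9.85, 9.87 and 9.72 at 25 °C, and that of egg-2 was 10.44, 10.49 and 10.41 against 10.16, 10.05 and 9.93. The paralog of egg-2, egg-1, differed by -0.09 (adjusted p 0.696). No oocyte growth gene was called in the main fit: rme-2 differed by -0.34 (limma adjusted p 0.138) and oma-1, a zinc-finger protein of oocyte maturation, by -0.15 (adjusted p 0.357). With adult arrays fitted alone 15 members fell, where 16.4% of all genes did. They included the oocyte growth genes rme-2 (limma adjusted p 0.0225) and lin-41 (adjusted p 0.0479). The maternal polarity gene mex-5 differed by -0.06 (limma adjusted p 0.816) and pie-1, which keeps germ line blastomeres transcriptionally silent, by -0.04 (adjusted p 0.865). With the preparation number as a block, 12 members were called, daz-1 (adjusted p 0.044) and pgl-3 (adjusted p 0.0395) being added to the 10. The call of chs-1 was lost without any 1 of the 6 arrays, with a limma adjusted p of 0.11 without preparation 3 of 25 °C, and that of egg-2 without any but preparation 1 of 25 °C. The call of syp-3 was lost without preparation 2 or 3 of 15 °C or preparation 1 or 2 of 25 °C, and that of fbf-2 without preparation 1 of either temperature. When each array was centred on its median, 16 members fell where 23.8% of all genes did, and 36% of all called genes rose in place of 50.2%.

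In daf-16 adults the called members were 2 P granule helicases and 1 repressor that keeps stem cells from meiosis. Of the 42 members, 3 fell and 0 rose, where 11.2% of all genes fell and 13.4% rose. At an unadjusted p under 0.05, 13 fell and 0 rose, where 19.4% of all genes fell and 16.6% rose. The called genes are glh-2, glh-1 and fbf-1, all of which also fell in wild type. The level of glh-2 was 8.68, 8.60 and 8.44 at 15 °C and 7.97, 7.79 and 7.66 at 25 °C, and it fell by 0.77 (SE 0.21, limma adjusted p 0.00927). For glh-1 it was 9.01, 8.80 and 8.62 against 8.59, 8.15 and 8.31, and it fell by 0.46 (SE 0.13, limma adjusted p 0.0118). For fbf-1 it was 8.95, 8.97 and 8.66 against 8.58, 8.27 and 8.40, and it fell by 0.44 (SE 0.15, limma adjusted p 0.0336). None of the 3 genes had overlapping groups. None of the 9 meiosis genes was called in the main fit, where htp-3 differed by -0.26 (limma adjusted p 0.129) and msh-5 by -0.41 (adjusted p 0.0747). With array weights htp-3 (limma adjusted p 0.0495), syp-2 (adjusted p 0.0416) and msh-5 (adjusted p 0.0188) were called, all lower at 25 °C. No meiosis gene was called when the temperature effects of the genotypes were compared.

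The median difference was -0.16 for the members and -0.10 for all genes in daf-16 adults, and 31 of 42 were below 0. Without preparation 2 at 25 °C, the array that was lowest for most members, 1 was called (glh-2), as was 1 without preparation 1 at 15 °C, and without preparation 1 at 25 °C, 8 were. Of all genes, 6.18%, 7.41% and 9.56% then fell. The call of fbf-1 was also lost without preparation 2 at 15 °C or preparation 3 at 25 °C. With arrays weighted by their quality, 12 members fell, where 18.6% of all genes did. In the mutant, glp-1 differed by -0.28, gld-1 by -0.06, pgl-1 by -0.13, him-3 by 0.17, syp-1 by -0.23, rme-2 by -0.20, oma-1 by -0.04, mex-5 by 0.04, pie-1 by 0.02, egg-1 by -0.17 and chs-1 by -0.32, none of which was called. The genotypes share no arrays in these comparisons. Across the 42 genes the effects in wild-type and mutant adults had r = 0.906 and rho = 0.874, as a description over genes that share the arrays of each group.

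**Figure D2:**
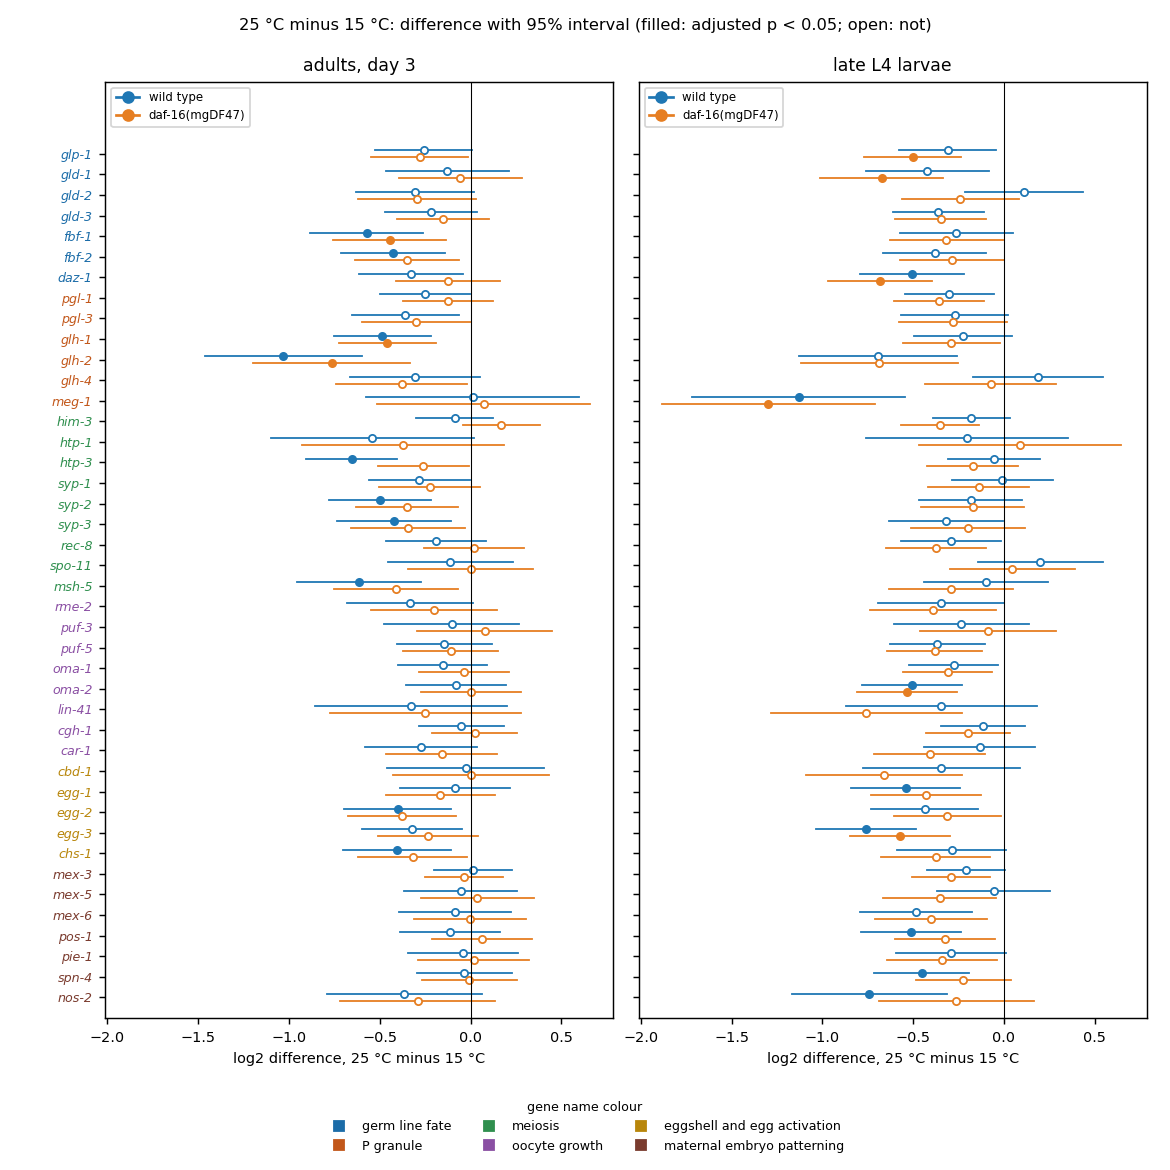
Difference in log2 level between 25 °C and 15 °C for each of the 42 members on the horizontal axis, in wild type and daf-16 mutants, in adults and in larvae. Points are limma estimates and lines their 95% intervals. In adults glh-2 is lowest in both genotypes, and in larvae meg-1 is.

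Other genes of the same pathways were read from lists that exclude the members. In wild-type adults 23 of 32 measured meiosis genes fell and 0 rose, where 15% of all genes fell and 15.1% rose. Their median was -0.49, against -0.10 for all genes. The X-chromosome pairing protein gene him-8 fell by 1.11 (SE 0.12, limma adjusted p 2.41e-07) and zim-3, which pairs autosomes, fell by 0.89 (SE 0.15, limma adjusted p 6.66e-05). In the mutant, 17 of 32 fell and 0 rose, where 11.2% of all genes fell and 13.4% rose. There zhp-3, which encodes a crossover-promoting RING protein, fell by 0.67 (SE 0.13, limma adjusted p 0.000364). Of 14 other P granule genes 8 fell in wild type and 6 in the mutant, and 0 rose in either. Here pgl-2 fell by 0.83 (SE 0.15, limma adjusted p 0.000135) in wild type and by 0.68 (limma adjusted p 0.00155) in the mutant. Other genes of germ line fate included 2 that rose in both genotypes, fog-3 and fog-1, which specify sperm fate. In wild type fog-3 rose by 2.07 (SE 0.16, limma adjusted p 3.85e-09) and fog-1 by 1.41 (SE 0.13, adjusted p 3.34e-08), while in the mutant they rose by 1.35 and 1.08. Among the 20 other oocyte genes 2 rose and 1 fell in wild type, and of 12 other maternal genes 0 rose and 1 fell.

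Markers of other cell types moved in adults too. In wild type, 8 of 10 body wall muscle genes, 6 of 10 somatic gonad genes and 9 of 12 cuticle moulting genes rose at 25 °C, as did 7 of 16 genes of the early embryo, and 0 fell on each of these lists. Of all genes, 15.1% rose and 15% fell. The log2 of the summed muscle signal went from 11.43 to 11.50 at 15 °C up to 12.01 to 12.21 at 25 °C. That of the moulting list went from 8.68 to 9.15 up to 10.90 to 11.08, and that of the embryo list from 9.67 to 10.004 up to 10.25 to 10.57. Of 21 measured sperm genes, 1 rose and 1 fell, with sums of 9.01 to 9.35 and 8.68 to 9.38. The somatic gonad list summed to 10.32 to 10.40 at 15 °C and 10.79 to 10.91 at 25 °C. In the mutant 4 muscle, 2 somatic gonad, 9 moulting and 6 embryo genes rose and 1, 0, 0 and 1 fell. In this genotype 13.4% of all genes rose and 11.2% fell. Its muscle sum went from 11.58 to 11.94 up to 11.78 to 12.10, its moulting sum from 9.23 to 9.45 up to 10.70 to 11.45 and its embryo sum from 10.22 to 10.30 up to 10.59 to 10.82. The part of these changes in the lower germ line transcripts was not tested. No marker was listed at 0.

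In larvae raised at 25 °C, daz-1, oma-2, egg-3 and meg-1 fell in both genotypes, each with a loss of call in 1 or both when preparation 3 of 25 °C was left out. In wild-type larvae 8 of 42 members fell and 0 rose, where 2.03% of all genes fell and 2.25% rose. At an unadjusted p under 0.05, 20 fell and 0 rose, where 9.19% of all genes fell and 7.77% rose. The median difference was -0.30 for the members and -0.03 for all genes, and 39 of 42 were below 0. By role, 3 of 7 maternal genes, 2 of 5 eggshell genes, 1 of 8 oocyte growth genes, 1 of 7 germ line fate genes, 1 of 6 P granule genes and 0 of 9 meiosis genes fell. In daf-16 larvae 6 of 42 members fell and 0 rose, where 1.88% of all genes fell and 2.72% rose. By role, 3 of 7 germ line fate genes, 1 of 6 P granule genes, 1 of 8 oocyte growth genes, 1 of 5 eggshell genes, 0 of 9 meiosis genes and 0 of 7 maternal genes fell. At an unadjusted p under 0.05, 27 fell and 0 rose, where 8.65% of all genes fell and 8.18% rose. The median was -0.33 for the members and -0.02 for all genes, and 40 were below 0. Without preparation 3 of both 25 °C groups, 1 member was called in wild type and 2 in the mutant, the medians were -0.19 and -0.21, and 38 members were below 0 in each. Of all genes, 1.65% and 1.03% then fell. The counts rested on single arrays elsewhere too. In wild type, 1 member was called without preparation 1 or 2 of 15 °C or preparation 3 of 25 °C, 2 without preparation 2 of 25 °C, 5 without preparation 3 of 15 °C and 13 without preparation 1 of 25 °C. In the mutant, 1 was called without preparation 1 of 15 °C, 2 without preparation 3 of 25 °C and 13 without preparation 1 of 25 °C. The fit pools the spread of all groups, but the members varied more in larvae at 25 °C. Their median SD there was 0.223 in wild type and 0.248 in the mutant. It was 0.134 and 0.107 in larvae at 15 °C, and 0.069 to 0.102 in adults. The SEs and p-values of larvae may therefore be too small. With larval arrays fitted alone, 1 was called in wild type and 0 in the mutant.

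The widest difference was in meg-1. It read 7.32, 7.29 and 6.87 in wild-type larvae at 15 °C and 6.97, 5.62 and 5.49 at 25 °C, so the highest array at 25 °C lay above the lowest at 15 °C. It fell by 1.13 (SE 0.28, limma adjusted p 0.0221). That SE is pooled over all groups. The SD of meg-1 was 0.82 in wild-type larvae at 25 °C and 0.25 at 15 °C, but 0.02 to 0.13 in adults. With larval arrays fitted alone the limma adjusted p of meg-1 was 0.123 in wild type and 0.0725 in the mutant. In the mutant it read 6.93, 6.41 and 6.65 at 15 °C and 5.85, 5.59 and 4.67 at 25 °C, without overlap, and it fell by 1.298 (SE 0.28, limma adjusted p 0.00815). Without preparation 3 of both 25 °C groups its limma adjusted p was 0.0655 in wild type and 0.046 in the mutant. Preparation 3 was the lowest at 25 °C in each genotype.

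The egg activation gene egg-3, which holds the activation machinery at the oocyte cortex, had the smallest adjusted p in wild type. Its levels were 7.86, 7.92 and 7.77 at 15 °C and 7.45, 6.79 and 7.03 at 25 °C. It fell by 0.76 (SE 0.13, limma adjusted p 0.00128), and its call was kept without preparation 3 of both 25 °C groups (adjusted p 0.0106). In the mutant it read 7.52, 7.31 and 7.42 against 7.002, 6.70 and 6.83, and it fell by 0.57 (SE 0.13, limma adjusted p 0.0126). Without those preparations its adjusted p in the mutant was 0.0517. The oocyte surface gene egg-1 fell by 0.54 (SE 0.15, limma adjusted p 0.0341) in wild-type larvae, from 8.19, 8.24 and 8.16 to 8.11, 7.50 and 7.35. Without preparation 3 of both 25 °C groups its difference was -0.39 and its call was lost (limma adjusted p 0.15). In the mutant it differed by -0.43 (limma adjusted p 0.1). In both genotypes chs-1 was not called, at -0.29 and -0.38.

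The DAZ-family RNA-binding gene daz-1, needed for oogenesis, was called in both genotypes. It read 10.29, 10.44 and 10.28 at 15 °C and 9.98, 9.87 and 9.64 at 25 °C in wild-type larvae, and it fell by 0.51 (SE 0.14, limma adjusted p 0.0367). In the mutant it read 10.51, 10.21 and 10.24 against 9.97, 9.68 and 9.26, and it fell by 0.68 (SE 0.14, limma adjusted p 0.00446). The groups were apart in both. Without preparation 3 of both 25 °C groups the limma adjusted p of daz-1 was 0.0659 in wild type and 0.0273 in the mutant. The other genes of germ line fate called in the mutant were gld-1 and glp-1. The levels of gld-1 were 10.98, 10.76 and 10.83 against 10.55, 10.36 and 9.64, and it fell by 0.67 (SE 0.16, limma adjusted p 0.0171). Those of glp-1 were 8.42, 8.29 and 8.40 against 8.04, 8.07 and 7.50, and it fell by 0.50 (SE 0.13, limma adjusted p 0.0247). Both calls were lost without preparation 3 of both 25 °C groups, where gld-1 differed by -0.40 (limma adjusted p 0.0793) and glp-1 by -0.32 (adjusted p 0.138). In wild type gld-1 differed by -0.42 and glp-1 by -0.31, and neither was called.

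The oocyte maturation gene oma-2 was also called in both genotypes. It read 10.01, 10.19 and 9.97 against 9.80, 9.52 and 9.32 in wild-type larvae and fell by 0.51 (SE 0.13, limma adjusted p 0.0299). In the mutant it read 10.03, 9.64 and 9.96 against 9.50, 9.36 and 9.16 and fell by 0.54 (SE 0.13, limma adjusted p 0.0197). Every array at 25 °C was below those at 15 °C. Without preparation 3 of both 25 °C groups oma-2 differed by -0.39 (limma adjusted p 0.133) in wild type and by -0.45 (adjusted p 0.0925) in the mutant, and both calls were lost. The paralog oma-1 differed by -0.28 and -0.31, and rme-2 by -0.34 and -0.39, without a call. Maternal genes called in wild-type larvae were pos-1, spn-4 and nos-2. The zinc-finger gene pos-1 fell by 0.51 (SE 0.13, limma adjusted p 0.0276), the RNA-binding gene spn-4 by 0.45 (SE 0.13, adjusted p 0.0429) and nos-2 by 0.74 (SE 0.21, adjusted p 0.0416), and none of them had groups that overlapped. In nos-2 the arrays read 3.70, 3.30 and 3.31 against 2.94, 3.00 and 2.15, near the array medians. When preparation 3 of both 25 °C groups was left out, pos-1 differed by -0.42 (limma adjusted p 0.132), spn-4 by -0.37 (adjusted p 0.159) and nos-2 by -0.47 (adjusted p 0.236), and none was called. In the mutant no maternal gene was called. The polarity gene mex-5 differed by -0.06 and -0.35 in wild type and mutant, and pie-1 by -0.29 and -0.34. For pgl-1 the differences were -0.30 and -0.36, for glh-1 -0.23 and -0.29, for him-3 -0.18 and -0.35 and for syp-1 -0.01 and -0.14.

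Other oocyte and eggshell genes fell in larvae as well. Of 20 measured, 5 fell and 0 rose in each genotype, where 2.03% of all genes fell in wild type and 1.88% in the mutant. Among them perm-2, an eggshell protein gene, fell by 0.91 (SE 0.21, limma adjusted p 0.0144) in wild type and 0.94 (adjusted p 0.0105) in the mutant. In wild-type adults perm-2 rose by 0.59 (SE 0.21, limma adjusted p 0.037), and the difference between the stages was 1.499 (SE 0.30, adjusted p 0.00139). These larval values include preparation 3 of 25 °C, which had the lowest mean of the oocyte and eggshell list in its group. It read 7.96 against 8.34 and 8.05 in wild type, and 7.71 against 8.12 and 7.91 in the mutant. Of 32 other meiosis genes 2 fell in wild-type larvae and 3 in the mutant, and of 14 other P granule genes 1 and 2. Of 21 sperm genes 1 rose and 0 fell in each genotype, and of 10 muscle, 10 somatic gonad and 12 moulting genes 0 were called. The sperm list summed to 9.84 to 10.25 at 15 °C and 10.06 to 10.20 at 25 °C in wild type, and to 10.09 to 10.19 and 9.95 to 10.28 in the mutant. The mean muscle level was 8.06 in preparation 3 of mutant larvae at 25 °C and 8.61 and 8.71 in the others of that group. Its part in the lower values of that array was not tested.

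**Figure D3:**
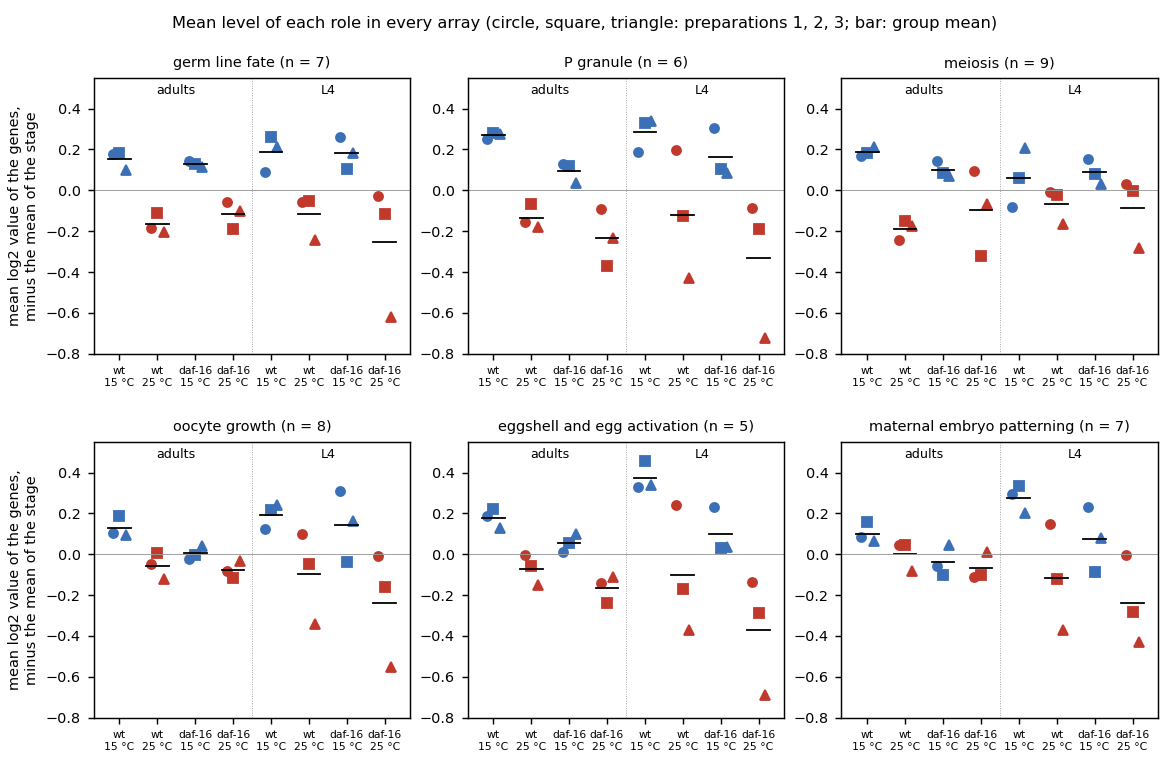
Mean log2 level of the members of each role in each of the 24 arrays, relative to the mean over the arrays of the same stage, by group on the horizontal axis. All 6 roles separate the temperatures in wild-type adults. The median difference of the maternal genes there, -0.06, was smaller in size than the -0.10 of all genes. Meiosis and maternal genes overlap in mutant adults, P granule and meiosis genes in wild-type larvae, and oocyte growth and maternal genes in mutant larvae. Preparation 3 of larvae at 25 °C is the lowest of its group for each role. Blue is 15 °C, red is 25 °C and bars are group means.

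The temperature effect was tested against genotype and against stage. In adults 0 of 42 members differed between genotypes at an adjusted p under 0.05 (0.267% of all genes did), and 0 with array weights. At an unadjusted p under 0.05, 1 differed upward and 0 downward, where 2.94% of all genes differed upward and 3.81% downward. That 1 was htp-3, which fell by 0.66 in wild type and differed by -0.26 in the mutant, a difference of 0.40 with a 95% interval from 0.04 to 0.75 and a limma adjusted p of 0.655. In larvae 0 of 42 differed by any of these 3 counts, and 0% of all genes were called. At an unadjusted p under 0.05, 2.21% of all genes differed upward there and 1.92% downward. The widest estimate was that of nos-2, at 0.48 (SE 0.29). Over all members the 95% intervals reached from -0.77 to 0.96 in adults and from -1.16 to 1.08 in larvae, and differences within those bounds are not shown to be absent.

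Between the stages, 1 of 42 members differed in wild type, where 13.8% of all genes did. The temperature effect on htp-3 was -0.66 in adults and -0.05 in larvae, and the difference was -0.60 (SE 0.17, limma adjusted p 0.0211). In the mutant 2 of 42 differed, where 10% of all genes did. The effect on meg-1 was 0.07 in adults and -1.298 in larvae, a difference of 1.37 (SE 0.40, limma adjusted p 0.0302). That on him-3 was 0.17 in adults and -0.35 in larvae, a difference of 0.52 (SE 0.15, limma adjusted p 0.0224). In the mutant him-3 read 10.14, 10.12 and 10.13 in adults at 15 °C and 10.40, 10.19 and 10.31 at 25 °C, and 8.04, 7.98 and 7.92 against 7.72, 7.64 and 7.52 in larvae. Arrays of the temperatures did not overlap at either stage, and the estimates had opposite signs. Neither effect was called by itself, with a limma adjusted p of 0.246 in mutant adults and 0.0505 in mutant larvae. In wild type the difference for meg-1 was 1.14 (SE 0.40, limma adjusted p 0.0611). The call of htp-3 was lost without preparation 3 of adults at 15 °C, preparation 1 of adults at 25 °C, preparation 2 of larvae at 15 °C or preparation 3 of larvae at 25 °C. That of meg-1 was lost without any 1 of the 12 mutant arrays other than preparation 2 of larvae at 15 °C and preparations 1 and 2 of larvae at 25 °C. That of him-3 was lost without preparation 1 of adults at 25 °C, preparation 1 of larvae at 15 °C or preparation 3 of larvae at 25 °C, and when arrays were centred on their medians. Across the 42 genes adult and larval effects had r = -0.042 in wild type and -0.128 in the mutant.

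Loss of daf-16 went with no called change in any of the 42 members, at either stage or temperature. In adults at 15 °C 0 were called where 1.47% of all genes were. At an unadjusted p under 0.05, 4 were lower and 0 higher, where 5.84% of all genes were lower and 6.63% higher. In adults at 25 °C 0 were called where 3% of all genes were. Before adjustment 1 was higher and 1 lower, where 7.56% of all genes were higher and 6.48% lower. In larvae 0 were called at 15 °C, where 0.0708% of all genes were, and 0 at 25 °C, where 0.118% were. Before adjustment 6 were lower at 15 °C and 2 at 25 °C, where 5.32% and 2.6% of all genes were. Estimates were below 0 for 33 and 25 of 42 members in adults at 15 °C and 25 °C, and for 27 and 37 in larvae. Of all 25434 genes, 12605 and 11937 were below 0 in adults, and 14839 and 14449 in larvae. With array weights 0 were called in each of the 4 comparisons.

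The largest estimates were in rme-2 in adults and meg-1 in larvae. The yolk receptor gene rme-2 read 10.57, 10.44 and 10.55 in wild-type adults at 15 °C and 10.14, 10.04 and 9.97 in the mutant. The genotypes were apart, and the difference was -0.47 (SE 0.17, 95% interval from -0.82 to -0.12) with a limma adjusted p of 0.201. At 25 °C rme-2 read 10.14, 10.23 and 10.18 against 9.97, 9.70 and 9.87, again apart, and the difference was -0.34 (SE 0.17, limma adjusted p 0.38). For meg-1 the difference in larvae was -0.49 at 15 °C and -0.66 at 25 °C (SE 0.28, limma adjusted p 0.685 and 0.911). In larvae at 15 °C egg-3 differed by -0.43 (limma adjusted p 0.349) and spn-4 by -0.40 (adjusted p 0.381). Over the 42 members the 95% intervals of the genotype difference lay between -0.83 and 0.61 in adults and between -1.25 and 0.95 in larvae.

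**Figure D4:**
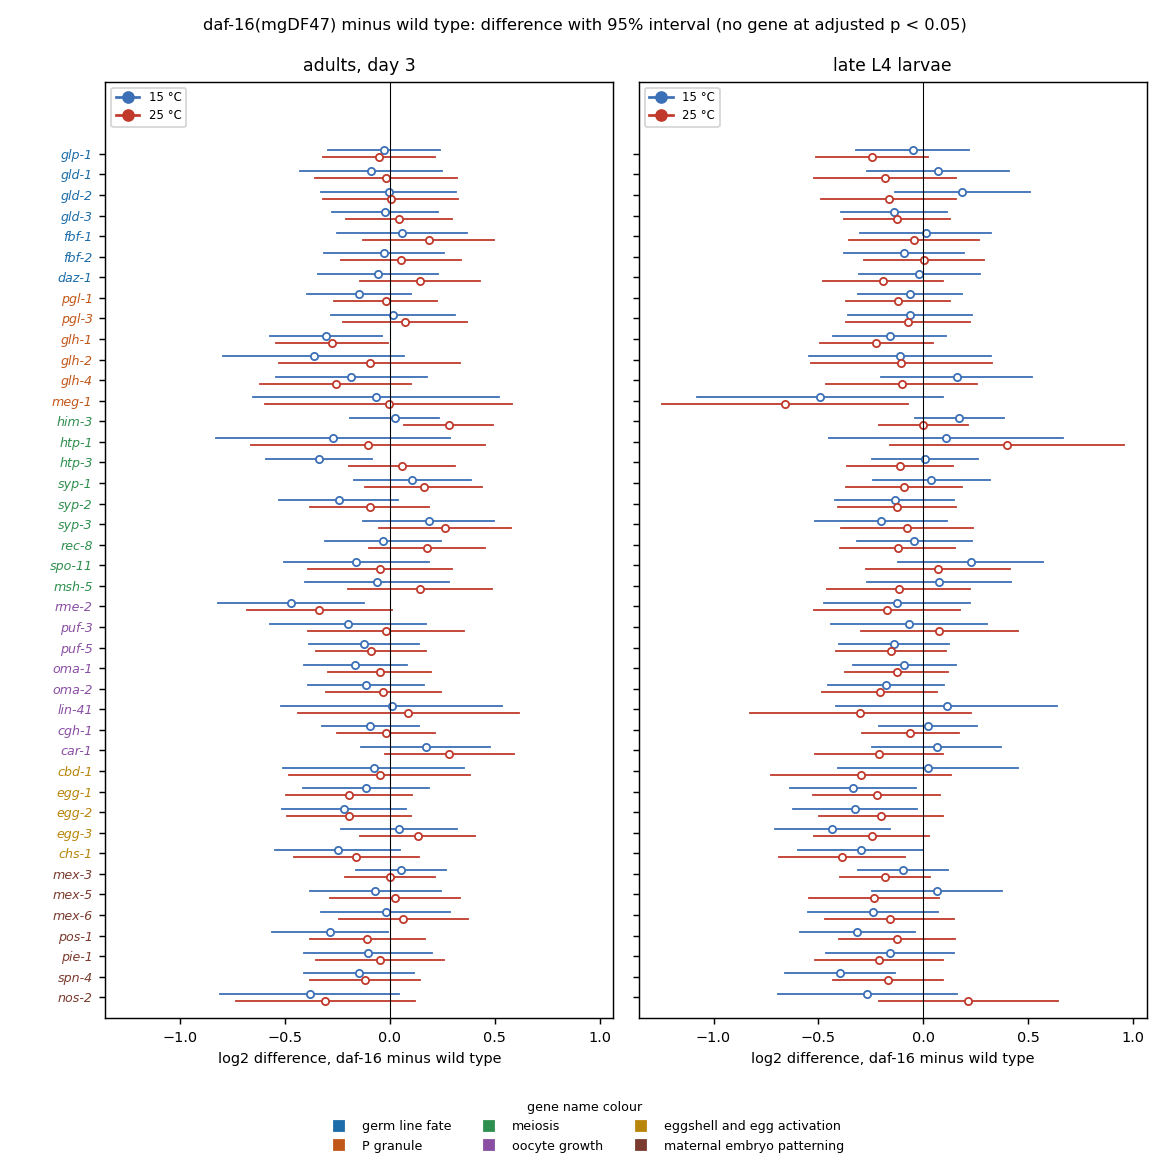
Difference in log2 level between daf-16 mutants and wild type for each of the 42 members on the horizontal axis, at 15 °C and 25 °C, in adults and in larvae. Points are limma estimates and lines their 95% intervals. None was called, and rme-2 in adults and meg-1 in larvae have the lowest estimates.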

How the data were processed

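The authors deposited log2 intensities for 29317 probe sets, made with RMA per the submitters' processing notes (version and settings not given in the sources used here). RMA corrects background, normalizes by quantiles and summarises probes. Adult and larval arrays have different distributions, and 3 probe sets are blank in all adult arrays. This points to separate normalization of adults and larvae, and levels were not tested between them. Probe sets with 1 gene symbol in the platform table (25484, against 700 with several and 3133 unnamed) were used, the brightest for 41 genes with several, which left 25434 genes without a filter on dim ones. Group means were fitted in limma 3.58.1 (R 4.3.3) over all 24 arrays and moderated by eBayes (residual degrees of freedom 16, prior 6.06). There were 12 comparisons: 4 of temperature, 4 of genotype, 2 of temperature by genotype and 2 of temperature by stage. Tests were two-sided, with Benjamini-Hochberg adjustment over all genes of a comparison, and called under 0.05. The fit was tested on simulated data. The number of arrays limits the precision. Probes of close paralogs (fbf-1 and fbf-2, egg-1 and egg-2, glh-1 and glh-2, htp-1 and htp-2) may share signal.

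Members, gene lists and comparisons were chosen with earlier results of these data known. Named throughout were glp-1, gld-1, pgl-1, glh-1, him-3, syp-1, rme-2, oma-1, mex-5, pie-1, egg-1 and chs-1, every called member, and up to 5 members with the widest rank difference between stages in each direction. Other genes were named where called and among the 2 widest of their list. Values of meg-1, egg-3, spn-4, htp-3, msh-5, nos-2, pgl-3, syp-2 and lin-41 given outside that rule were chosen after they were seen. Preparation numbers were checked by correlating, across genes, deviations from the group means. For 2 comparisons every correlation exceeded 0.1: from 0.26 to 0.341 in the temperature comparison of wild-type adults, and from 0.151 to 0.455 when larvae of both genotypes were compared at 25 °C. In those 2 the preparation numbers may pair the arrays, although no label says so. The main fit did not pair them. With the number as a block, 12 members rather than 10 were called in wild-type adults, and 0 by genotype in larvae at 25 °C. Alternatives were median centring, quantile normalization within a stage, a filter on the dimmest 25% of genes, the mean over probe sets of a gene, array weights, each stage alone, the number as a block, a 2-fold rule and each preparation left out.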

Additional observations from a re-analysis of the deposited data

Results flagged for a closer look

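Temperature effects that differed between adults and larvae by an interaction test drew attention in 3 members. In wild type 1 of 42 members was called, where 13.8% of all genes were, and in the mutant 2 of 42, where 10% were. In wild type, the effect on htp-3 was lower in adults by a difference of -0.60 on the log2 scale (limma adjusted p 0.0211), and its call was lost when any 1 of 4 arrays was left out, with a limma adjusted p between 0.0521 and 0.0638. In the daf-16 mutant, the effect on meg-1 was higher in adults by 1.37 (limma adjusted p 0.0302), and that on him-3 by 0.52 (adjusted p 0.0224). Without preparation 3 of mutant larvae at 25 °C the values were 1.02 for meg-1 (limma adjusted p 0.0986) and 0.47 for him-3 (adjusted p 0.0576).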

How the results depend on the processing

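No alternative reversed the direction of a called member. Counts of called members that moved by more than 1.5 times were as follows. Centring arrays on their medians gave 16 in wild-type adults, 7 in daf-16 adults and 1 for temperature by stage in the mutant. Array weights gave 12 in daf-16 adults and 2 for temperature by stage in wild type. Fitting each stage alone gave 8 in daf-16 adults, 1 in wild-type larvae and 0 in mutant larvae. The 2-fold rule left 1 in wild-type adults, 0 in daf-16 adults, 1 in larvae of each genotype, 0 for temperature by stage in wild type and 1 in the mutant. The block gave 3 for temperature by stage in wild type. Leaving out 1 preparation at a time gave 1 to 8 in daf-16 adults, 1 to 13 in larvae of each genotype and 0 to 4 for temperature by stage in each genotype. In larvae the count of 13 came without preparation 1 at 25 °C of that genotype. Without preparation 3 of both larval groups at 25 °C, an alternative chosen after seeing the data, the counts were 1 and 2 in wild-type and mutant larvae, and 2 and 1 for temperature by stage. The cause of these shifts was not tested. In wild-type adults, fbf-1, glh-1, glh-2, htp-3, syp-2 and msh-5 were called under all 13 alternatives run other than the 2-fold rule, and so was egg-3 in wild-type larvae. Genotype counts were 0 under every alternative run.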
